A study of Mus musculus with 6 samples.

Results

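The accessible chromatin of 10 Polycomb genes was described in long-term haematopoietic stem cells of aged and young mice. These were Ezh1, Ezh2, Eed, Suz12 and Jarid2 of Polycomb repressive complex 2 (PRC2) and Bmi1, Ring1, Rnf2, Cbx7 and Cbx2 of Polycomb repressive complex 1 (PRC1). A region belonged to a gene if it overlapped the annotated gene body or the 25 kb on either side of it. Overlapping peaks of the 6 lists (1 bp or more) were joined, which gave 381 regions at the 10 loci out of 882758 in the genome.

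Accessibility was measured by ATAC-seq, in which a transposase inserts sequencing adapters into open DNA. The cells came from bone marrow of C57BL/6 mice, with 3 aged and 3 young samples and 1 deposited peak list per sample. The labels give 1 sort and 1 culture for all 6 samples, aged and young. Cells that lacked lineage markers, Flk2 and Cd34 and carried Kit and Sca1 were sorted, and the primary cells were kept overnight at 3% oxygen in buffered saline with serum. The titles of replicates 1, 2 and 3 also carry exp2, exp5 and exp3 at both ages, after numbers that differ between samples, and neither is explained. Exact ages, sex and the number of animals behind each sample are not stated, so the spread between lists may be technical.

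The lists held 244692, 129137 and 129949 distinct peaks in aged and 263956, 254869 and 110596 in young samples, and the read depth behind them is unknown. Young replicate 2 stood apart from the other lists. Its -log10 p took 200 distinct values and reached at most 20.6, against 2302 to 17537 values and maxima of 80.9 to 560.9 elsewhere, so its ranks rest on many tied peaks. It called the promoters of 49% of the genes with a start and aged replicate 3 those of 51.9%, against 64.4% to 66.8% in the other 4 lists. The maximum of -log10 p was 560.9 in aged replicate 2 and 538.1 in young replicate 3. In aged replicates 1 and 3 and young replicate 1 it was 80.9 to 88.3.

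Polycomb proteins keep genes silent by modifying histones. In PRC2 the methyltransferases Ezh2 and Ezh1 place the repressive methyl mark on histone H3, with Eed and Suz12 as obligate partners and Jarid2 as an accessory subunit. In PRC1 the ubiquitin ligases Rnf2 (Ring1B) and Ring1 (Ring1A) modify histone H2A, Bmi1 is a partner that raises their activity, and Cbx7 and Cbx2 carry the chromodomain that reads the mark of PRC2. In blood, Bmi1 and Ezh1 are known for their role in the self-renewal of stem cells, and Cbx7 and Cbx2 are alternative subunits of the same complex.

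The promoters of 5 members are shown here because their calls contrast. Rnf2 and Ezh2 were called in all 6 lists and ranked near the top, whereas Ezh1 and Bmi1 were each missing from 1 list and Ring1 from 2. Each stretch runs 5′ to 3′ on the strand of the gene, from 250 bases before to 50 after the start in RefSeq's table for GRCm38.p6 (mm10). Capitals mark exact matches, on either strand, to the 8 motifs searched.

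Rnf2, chr1:151500942-151501241, minus strand: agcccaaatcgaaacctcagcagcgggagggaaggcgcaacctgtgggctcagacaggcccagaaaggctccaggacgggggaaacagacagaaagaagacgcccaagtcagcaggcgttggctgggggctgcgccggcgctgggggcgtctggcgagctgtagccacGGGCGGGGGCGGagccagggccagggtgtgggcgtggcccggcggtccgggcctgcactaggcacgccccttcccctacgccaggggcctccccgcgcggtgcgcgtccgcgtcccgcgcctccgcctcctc
Ezh2, chr6:47594981-47595280, minus strand: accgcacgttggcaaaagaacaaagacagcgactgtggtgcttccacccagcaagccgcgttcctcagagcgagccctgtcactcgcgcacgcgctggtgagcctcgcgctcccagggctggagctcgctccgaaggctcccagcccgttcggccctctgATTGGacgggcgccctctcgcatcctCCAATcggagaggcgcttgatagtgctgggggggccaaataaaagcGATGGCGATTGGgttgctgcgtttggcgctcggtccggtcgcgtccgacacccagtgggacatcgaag
Ezh1, chr11:101226414-101226713, minus strand: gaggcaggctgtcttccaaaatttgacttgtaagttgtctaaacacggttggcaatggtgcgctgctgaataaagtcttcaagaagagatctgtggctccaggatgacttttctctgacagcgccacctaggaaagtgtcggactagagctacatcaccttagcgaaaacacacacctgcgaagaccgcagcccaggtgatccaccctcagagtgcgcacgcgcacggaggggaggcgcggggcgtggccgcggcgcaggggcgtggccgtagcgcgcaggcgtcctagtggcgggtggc
Bmi1, chr2:18676768-18677067, plus strand: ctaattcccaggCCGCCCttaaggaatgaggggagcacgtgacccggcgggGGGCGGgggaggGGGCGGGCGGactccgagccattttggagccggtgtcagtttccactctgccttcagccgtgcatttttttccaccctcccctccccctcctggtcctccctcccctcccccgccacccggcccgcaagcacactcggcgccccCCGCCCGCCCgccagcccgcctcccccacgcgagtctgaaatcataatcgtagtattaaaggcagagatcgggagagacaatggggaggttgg
Ring1, chr17:34024631-34024930, minus strand: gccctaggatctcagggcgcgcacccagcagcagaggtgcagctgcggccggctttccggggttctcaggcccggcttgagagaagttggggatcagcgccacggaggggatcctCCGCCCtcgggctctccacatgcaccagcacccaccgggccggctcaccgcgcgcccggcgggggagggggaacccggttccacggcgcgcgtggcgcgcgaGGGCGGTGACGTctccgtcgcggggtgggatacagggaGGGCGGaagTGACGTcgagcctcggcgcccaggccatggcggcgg

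The motifs were the GC box GGGCGG, the CCAAT box, the Ets core CCGGAAG, the Nrf1 core GCATGCG, the Creb core TGACGT, the E2f core TTCGCGC, the Yy1 core GATGGCG and the TATA box TATAAA. No 2 different motifs overlapped in the promoters of the members. Of the 10 promoter stretches that RefSeq gives for 9 members (2 for Jarid2), 7 held GGGCGG and 6 held CCAAT, against 46.7% and 38.5% of 21044 promoters of protein-coding genes. Bmi1 had 6 matches to GGGCGG, with overlapping copies counted each, and Ezh2 had 3 to CCAAT. Ezh1 had no match to any of the 8, which says only that these letters are not in that window. Ring1 held 2 matches to TGACGT, found in 8.58% of all promoters. The Yy1 core was in Ezh2 alone (4.32% of all), and the TATA box at the second start of Jarid2 alone (12.7%). The Ets core (11.7% of all promoters), the Nrf1 core (4.47%) and the E2f core (2.13%) were in none of the 10 stretches.

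The promoters of the members were rich in CpG. The stretches held 17 to 41 CpG, with 17 in Eed, 37 in Ring1 and 41 in Suz12, and their median was 27, against 13 over all promoters. Their GC content was 54.7% to 74%, with a median of 65.3% against 56.7% over all. The number of CpG did not order the members by their calls, since Eed, with the fewest, was called in all 6 lists and Ring1, with the second most, in 4.

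At the promoters, taken as 1 kb on each side of a start, 6 of the 10 members were called in all 6 lists and 9 in 5 or more. Cbx2 has no entry in the promoter table and was read at both annotated ends, of which the end at 119023019 on chromosome 11 carried the strongest call in every list. Over the 17273 protein-coding genes with a start, 35.3% had such a call in all 6 lists, 50.5% in 5 or more and 16.5% in none. Among those with at least 17 CpG, the number in Eed, 60.1% were called in all 6, against 13.9% of those with fewer. Over the 4354 genes read at both ends the share was 31.1%. The strength of a call is given as the percentile of its deposited -log10 p among the peaks of the same list. The mean of that percentile over the 6 lists, with a missing call as 0, had a median of 93 for the 10 members, against 59.2 for all genes with a start. Among promoters of any gene called in all 6 lists the median was 92.8.

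**Figure D1:**
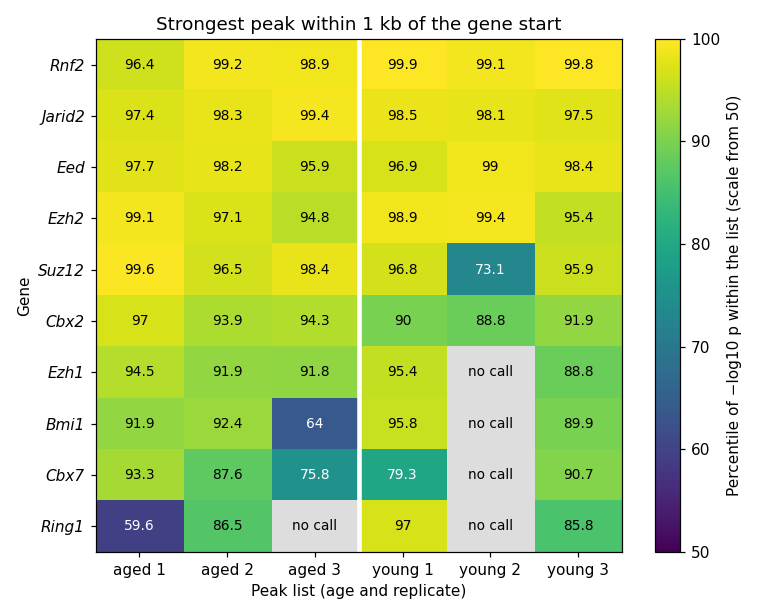
Percentile of the deposited -log10 p of the strongest peak within 1 kb of the start of each gene (rows) in each list (columns, aged left of young); grey cells had no call, and the colour scale starts at 50. Rnf2, Jarid2, Eed, Ezh2, Suz12 and Cbx2 have a value in every list, and young 2 lacks the other four genes.

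Of the PRC2 genes, Ezh2, the main H3 methyltransferase of dividing cells, had its promoter region at chr6:47594191-47595544. Its percentiles were 99.1, 97.1 and 94.8 in aged replicates 1 to 3 and 98.9, 99.4 and 95.4 in young replicates 1 to 3, so the ages overlapped. The start of F830010H11Rik lies in the same region, so the calls cannot be assigned to Ezh2 alone. Ezh1, the paralogue that prevails in resting cells, had a narrower promoter region of 549 bp (chr11:101226092-101226640). It ranked at 94.5, 91.9 and 91.8 in the aged lists and at 95.4 and 88.8 in young replicates 1 and 3, with no call in young replicate 2.

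Eed, the subunit that binds the methyl mark, was called over 1188 bp (chr7:89980217-89981404). Its percentiles were 97.7, 98.2 and 95.9 in the aged lists and 96.9, 99 and 98.4 in the young lists. Suz12, the scaffold of PRC2, was called over 981 bp (chr11:79992549-79993529), at 99.6, 96.5 and 98.4 in the aged lists and 96.8, 73.1 and 95.9 in the young lists. The value of 73.1 came from young replicate 2 and was the only one below 94 for Ezh2, Eed or Suz12. Jarid2, which helps PRC2 bind its targets, has starts at 44730774 and 44731271 on chromosome 13, both within 1 region of 1198 bp (chr13:44730207-44731404). It ranked at 97.4, 98.3 and 99.4 in the aged lists and 98.5, 98.1 and 97.5 in the young lists. None of these PRC2 promoters separated the ages.

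Of the PRC1 genes, Rnf2, the ligase used in most cell types, had the highest mean percentile of the 10 members, at 98.9. Its region of 749 bp (chr1:151500530-151501278) ranked at 96.4, 99.2 and 98.9 in the aged lists and 99.9, 99.1 and 99.8 in the young lists. The highest fold enrichment of a peak there, the authors' own value for that peak, was 7.26, 16.1 and 8.99 in aged and 15.5, 4.46 and 21 in young samples. Ring1, its paralogue, had the lowest mean, at 54.8. Its region of 683 bp (chr17:34024215-34024897) ranked at 59.6 and 86.5 in aged replicates 1 and 2 and at 97 and 85.8 in young replicates 1 and 3. It had no call in aged replicate 3 or young replicate 2. Bmi1 was called over 1145 bp (chr2:18676297-18677441), at 91.9, 92.4 and 64 in the aged lists and at 95.8 and 89.9 in young replicates 1 and 3. Both genes overlapped between the ages where they were called.

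The chromodomain genes were both called in every aged list. Cbx7, the form tied to stem-cell self-renewal, was called at its promoter (chr15:79932345-79932929) at 93.3, 87.6 and 75.8 in the aged lists and at 79.3 and 90.7 in young replicates 1 and 3. Cbx2 was called over 835 bp (chr11:119022531-119023365) at 97, 93.9 and 94.3 in the aged lists and 90, 88.8 and 91.9 in the young lists, and the start of Gm35829 lies in the same region. Cbx2 was the only 1 of the 6 members called in every list whose aged percentiles all lay above the young ones, and none lay all below. This held for 3.32% of 7449 promoters called in all 6 lists, with 2.73% in the other direction. With each list cut to its strongest 110596 peaks the aged percentiles of Cbx2 were 93.4, 92.9 and 93.3, against 76.1, 74.2 and 91.9 in the young lists. At q 0.05 the ages overlapped, at 92.3, 91.1 and 84.9 in aged samples, against 49.9, 73.6 and 88.4 in young ones. The highest deposited fold enrichment at that promoter was 7.83, 12 and 4.8 in aged and 4.02, 2.88 and 11.5 in young samples. These also overlapped, and ranks from lists of different length show no change by themselves.

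Calls were missing mainly from 1 list. Young replicate 2 called 6 of the 10 member promoters and aged replicate 3 called 9, whereas each of the remaining 4 lists called all 10. Without young replicate 2, 9 of the 10 promoters were called in each of the 5 other lists, against 45.3% of the genes with a start. Of the 25 member regions that the 5 other lists shared, young replicate 2 called 15, against 62.3% of such regions in the genome, and aged replicate 3 called 15 of 17, against 75.6%. The part of the ties and the lower call rate in the missing calls was not tested.

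The summit of the strongest promoter peak was compared with the start of the gene. In Rnf2 the summits of the 6 lists lay within 55 bp of each other, 35, 90 and 49 bp into the gene in aged and 82, 80 and 63 bp in young lists. Those of Ezh1 lay 28 to 85 bp into the gene in its 5 lists. Ring1, Suz12, Jarid2 and Cbx7 had every summit before the nearest start, with medians of 31, 70, 122.5 and 132 bp. The largest spreads were those of Eed, at 7 to 515 bp into the gene, and Bmi1, where 4 summits lay 227 to 427 bp before the start and that of aged replicate 1 lay 247 bp after it. In both genes the aged and young positions overlapped.

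**Figure D2:**
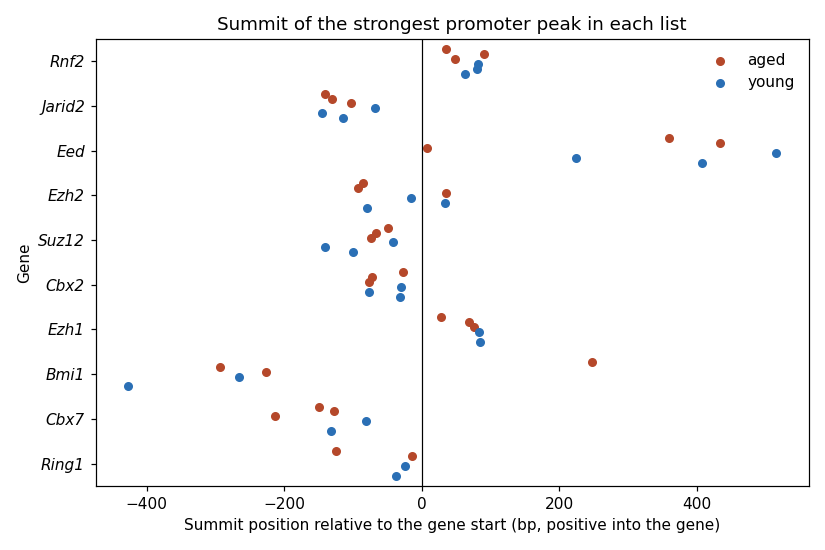
Position of the summit of the strongest promoter peak (x axis, bp from the start of the gene, positive into the gene) for each gene (rows) and each list that called it, with aged and young lists in different colours; for Cbx2 the position is relative to the annotated end at the lower coordinate. Summits of Rnf2 lie within 55 bp, while those of Bmi1 spread over 674 bp and those of Eed over 508 bp.

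Away from the promoters, calls shared between lists were few. Of the 381 regions, 15 (3.94%) were called in all 6 lists, against 1.09% of all 882758 regions, and 297 (78%) in 1 list, against 85.2%. Of the 15, 6 lay at the promoters of members, 7 at the start of another gene within the window and 2 inside a member. Of all regions in the genome that touch a promoter window, 15.4% were called in all 6 lists. Of the 337 regions that touched no promoter, these 2 were called in all 6 lists, against 0.386% of all such regions in the genome. A further 12 regions were called in 5 lists, which made 27 of the 381 in 5 or more, against 2.15% of all regions. Of the 12, 10 were missing from young replicate 2 and the other two from aged replicate 3. Without young replicate 2, 25 of the 381 regions were called in all 5 remaining lists, as were 15378 of all 882758 regions.

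**Figure D3:**
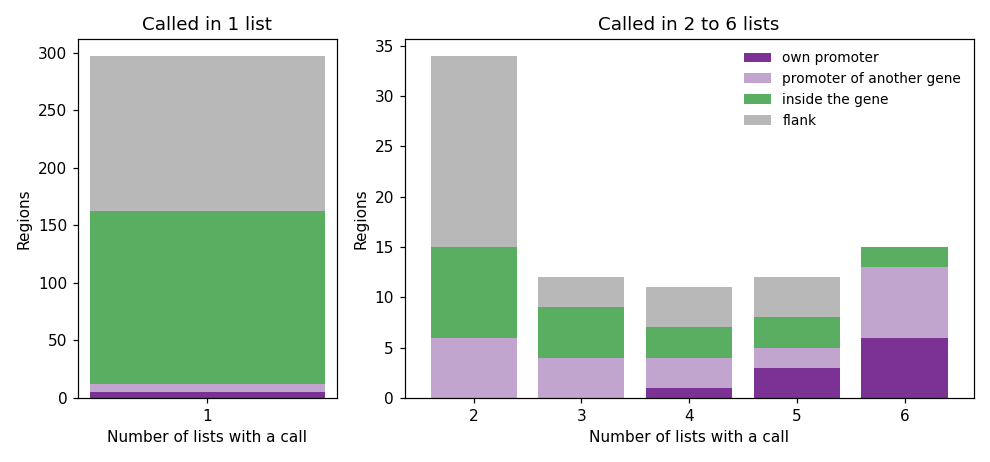
Number of regions at the 10 loci (y axis) by the number of lists that called them (x axis), stacked by position; the left panel has its own scale. Promoter regions of members make up 6 of the 15 regions called in all 6 lists and 5 of the 297 called in 1. Those 5 include regions at the higher-coordinate end of Cbx2, which was read at both ends (chr11:119030467-119030616 and chr11:119030939-119031088).

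Both shared internal regions lay near a start. In Jarid2 a region of 700 bp, centred 2.51 kb into the gene (chr13:44733436-44734135), ranked at 92.1, 89.7 and 83.1 in the aged samples and at 92.9, 65.3 and 86 in the young ones. In Cbx7 a region of 730 bp lay 4.72 kb into the gene (chr15:79927557-79928286) and ranked at 98.2, 95.1 and 90.9 in the aged samples and at 98.4, 42.7 and 93.6 in the young ones. In each of the 5 lists other than young replicate 2, this internal region of Cbx7 ranked above the promoter of the gene. At q 0.05, and in lists cut to equal length, it was called in 5 lists, while the internal region of Jarid2 stayed in 6. The annotation used here does not separate exons from introns.

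Jarid2, the longest member at 190870 bp, held 98 of the 381 regions. Of these, 83 were called in 1 list, against 85.2% of all regions in the genome. Its window held 4.07 regions per 10 kb, with 2.64 in Suz12 as the lowest of the members and 5.02 in Rnf2 as the highest. Deep inside Jarid2 lay 2 regions called in every list but young replicate 2. That at 138.5 kb from the start (chr13:44869501-44870092) ranked at 96.9, 96.7 and 92.8 in aged lists and 99.3 and 95.1 in young replicates 1 and 3. That at 68.9 kb (chr13:44799847-44800506) ranked at 93, 92.1 and 88.2 in aged lists and 95.7 and 91.4 in young replicates 1 and 3. The annotated gene body of Cbx7 runs on before the start used here, and a region in it 17.9 kb before that start (chr15:79950230-79950948) was called in 2 aged and 3 young lists. It ranked at 91.5 and 86.2 in aged replicates 1 and 2 and at 93.2, 88.8 and 80.2 in the young lists.

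Of the 165 flanking regions 4 were called in 5 lists and none in all 6, against 3 and 2 of the 172 regions inside a member. Over all regions of the genome, promoters included, 2.15% were called in 5 or more lists. For Ezh1, a region 5.78 kb before the start (chr11:101231809-101232686) was missing only in young replicate 2 and ranked at 95.4, 93.5 and 41.1 in aged lists and 95.7 and 91.9 in young replicates 1 and 3. For Cbx2, a region 11.3 kb from its start end (chr11:119034058-119034532) ranked at 78.7, 73.5 and 39.5 in aged lists and 83.3 and 85.5 in young replicates 1 and 3. Its other such region (chr11:119005976-119006425) ranked at 0.349 and 68.3 in aged replicates 1 and 2 and at 65, 22.3 and 64.9 in young lists. At q 0.05 that region was called in 2 lists. The flanking region of Cbx7 (chr15:79985401-79986096) ranked at 84.9, 83.4 and 38.1 in aged lists and 24.3 and 69.7 in young replicates 1 and 3. For Bmi1, a region 17.4 kb from the start, beyond the end of the gene (chr2:18693854-18694938), was called in 2 lists of each age, at 92.8 and 87.1 in aged replicates 1 and 2 and at 94.8 and 85.9 in young replicates 1 and 3. Ezh2, Suz12 and Rnf2 had no region other than their promoter called in more than 3 lists.

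**Figure D4:**
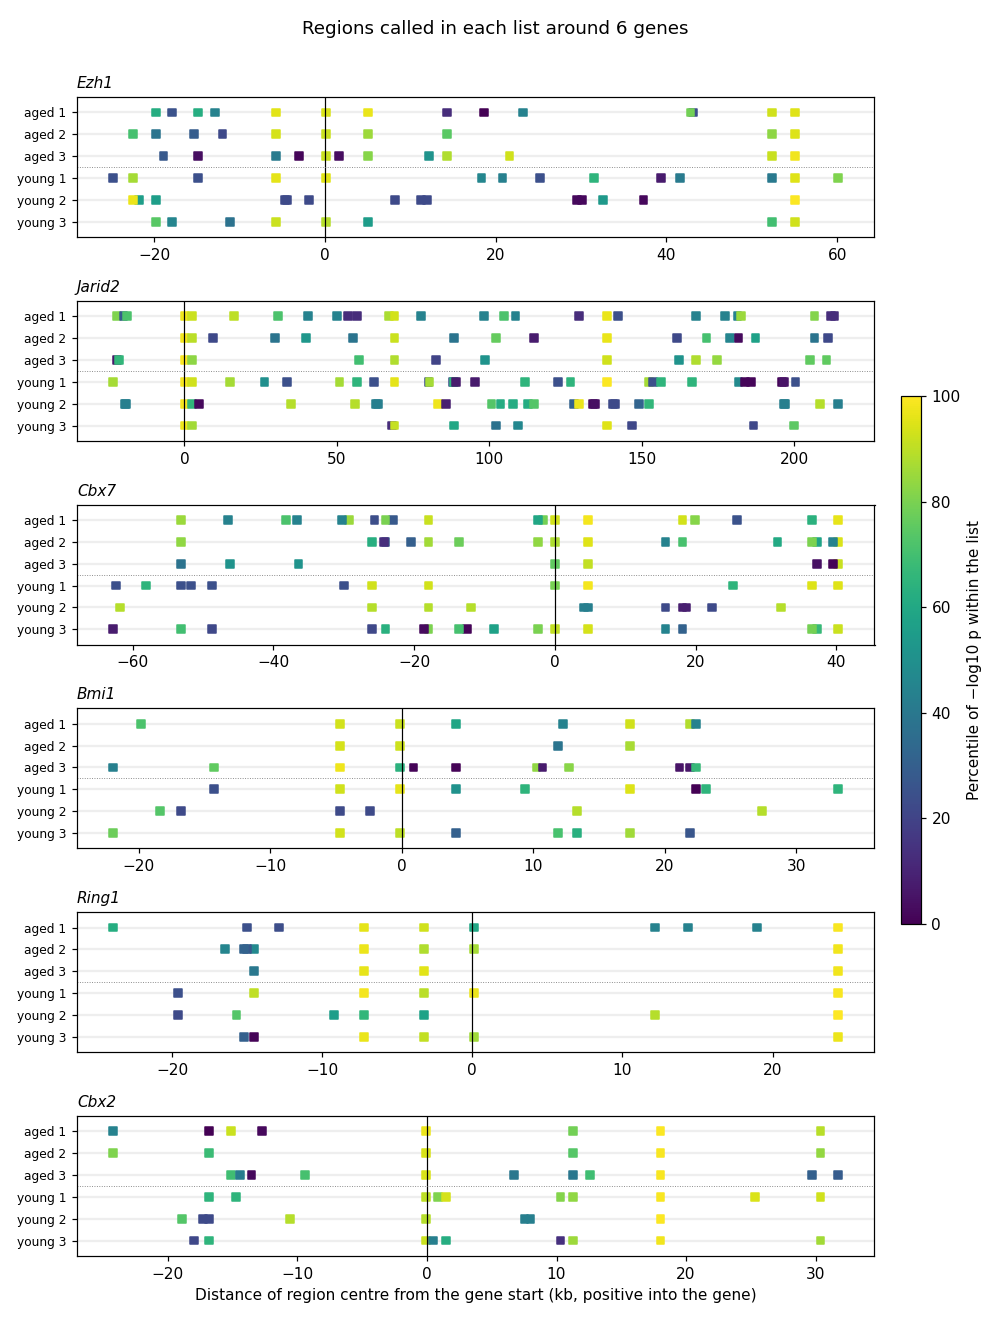
Regions called in each list (rows, aged above young) around Ezh1, Jarid2, Cbx7, Bmi1, Ring1 and Cbx2, by distance of the region centre from the nearest start of the gene (x axis, kb, positive into the gene; Cbx2 from its end at the lower coordinate) and coloured by percentile of -log10 p within the list. Columns of squares filled in all 6 rows are the shared regions, such as the one 4.72 kb into Cbx7, and most other squares stand alone.

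The question of which regions were called at one age alone gave 1 region. It lies inside Ezh1, 14.3 kb from the start (chr11:101212031-101212285), and was called in all 3 aged lists at 12.9, 74.5 and 88.2 and in no young list. Over the genome 0.0502% of regions had this pattern. The converse, 3 young lists and no aged one, was found for 0 member regions, against 0.0608% of the genome's. At q 0.05, and in lists cut to equal length, no member region had the aged pattern. Leaving out aged replicate 2 or aged replicate 3 raised the count to 4 regions, and leaving out aged replicate 1 or young replicate 3 to 2. The young count became 1 without aged replicate 2 or young replicate 1, 3 without young replicate 2 and 5 without young replicate 3. With a list left out fewer calls are asked for, so these counts cannot be set beside the genome's shares above. No share over all regions is given for them. A second region of Ezh1, 4.99 kb into the gene (chr11:101221112-101221829), was called in 3 aged lists at 96.8, 85.5 and 81.8 and in young replicate 3 at 54.9. With 3 lists per age a single region cannot reach a 2-sided exact p below 0.1, so neither was tested.

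As a share of each list, peaks at the 10 loci made up 0.0531%, 0.0681% and 0.0631% of aged and 0.0462%, 0.0475% and 0.066% of young peaks. The 95% Wilson intervals, which cover counting error only, ran from 0.0447% to 0.0839% over the aged lists and from 0.0387% to 0.083% over the young lists. The mean was 0.0615% ± 0.00764 for aged lists, against 0.0532% ± 0.0111 for young lists (SD, n = 3 each), a difference of 0.00822 percentage points with an exact 2-sided permutation p of 0.3. Lists called 123, 86 and 79 member regions in aged and 116, 119 and 72 in young samples, or 96 ± 23.6 against 102.3 ± 26.3 (SD, n = 3 each, exact 2-sided permutation p 1). The direction of that difference turned without aged replicate 3 (2.17), young replicate 1 (0.5) or young replicate 2 (2). Neither difference was detectable, and the smallest p that the design allows is 0.1.

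**Figure D5:**
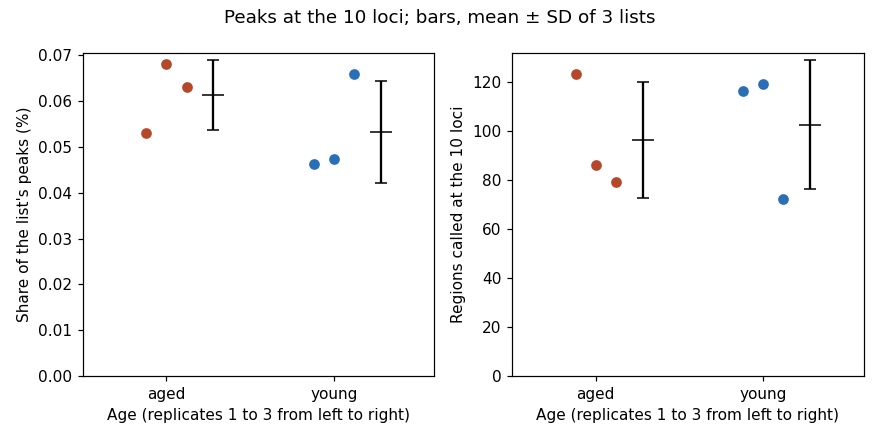
Share of each list's peaks at the 10 loci (left) and number of regions called there (right) in aged and young lists, with points for replicates 1 to 3 and the mean ± SD of 3 lists. The ages overlap in both panels, with shares of 0.0531% to 0.0681% in aged and 0.0462% to 0.066% in young lists.

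By locus, the peaks of a list per 10000 overlapped between the ages at all 10 genes. Over all protein-coding gene loci 3.28% had every aged value above every young one and 2.84% had every one below. Ezh1 had 0.572, 0.774 and 0.923 peaks per 10000 in aged samples, against 0.53, 0.549 and 0.723 in young ones (exact permutation p 0.2). Ezh2 had 0.572, 0.62 and 0.385 in aged samples, against 0.417, 0.314 and 0.362 in young ones (exact permutation p 0.2). These were the smallest p-values of the 10 loci, and all 10 were 1 after Benjamini-Hochberg adjustment. Cbx7 varied most between lists, at 0.776, 1.32 and 0.616 in aged samples and 0.493, 0.432 and 1.72 in young ones.

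Other Polycomb genes were read at their promoters in the same way. Of 43 such genes, 34 of them with a start in the table, 27 had a call in each of the 6 lists and 36 in 5 or more. Over all 21627 protein-coding genes, read by start or ends in the same way, the shares were 34.4% and 49.9%. The median of their mean percentile was 87.9. The 4 highest were Asxl1 and Asxl2, partners of the Bap1 deubiquitinase that removes the H2A mark, Kdm6a, a demethylase of the PRC2 mark, and Cbx8, a further chromodomain subunit, at 99.6, 99, 99.1 and 99. PRC2 accessory genes were called in all 6 lists for 7 of 8 and PRC1 genes for 13 of 26. Bap1 and its partners reached 6 of 7, and the demethylases 1 of 2. Scmh1 was called in 3 aged lists at 91.8, 82.7 and 88.2 and in young replicate 3 at 83.9, but in all 6 lists with a window of 2 kb. Scml2 was called in aged replicate 3 at 95.8 and in the young lists at 24.3, 42.7 and 64.9, and in 2 lists at q 0.05 or at equal list length. Bcorl1 had a call in 1 list of each age, and in 5 lists with a window of 2 kb. More aged than young lists called 8 of the 43, more young lists called 5, and 30 were equal. Over all protein-coding genes 20.4% were called in more aged and 17.9% in more young lists.

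Scml4 and Kdm6b, both read at the annotated ends, had no call there in any list. Inside each gene, however, the strongest region, looked up after these values were seen, was called in all 6 lists. That of Kdm6b (chr11:69418389-69419236) had a mean percentile of 90.6, and that of Scml4 (chr10:42859938-42861000) one of 87.1. With a window of 2 kb around the ends, Kdm6b was called in 6 lists and Scml4 in 5. An end without a call is therefore no measure of the promoter of these genes.

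At the edges of the windows most regions were called in 1 list, as were 85.2% of all regions in the genome. The regions closest inside the 25 kb limit were called in 1 list at 16 of the 20 edges, and those closest outside in 1 list at 15. Outside, a region called in all 6 lists lay 7331 bp beyond the window of Ring1 and one called in 5 lists 8380 bp beyond that of Suz12.

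The label of the cells was checked at promoters. Of 11 genes of long-term stem cells, 6 were called in all 6 lists (Kit, Hlf, Mecom, Meis1, Fgd5 and Ctnnal1), against 34.4% of all protein-coding genes. Slamf1 was called in none and Tek in 1, and Ly6a, which encodes the Sca1 of the sort and was read at its ends, in 4 with a mean percentile of 29.1. Of Flt3 and Cd34, whose proteins the sort excluded, promoters were called in 4 and 5 lists. Promoters of myeloid (10 genes), B-cell (6), T- and NK-cell (7), erythroid (6) and endothelial or stromal (5) markers included none called in all 6 lists, and Elane, Prtn3, Ctsg, Hbb-bt and Hba-a1 had no call in any list. Of 4 megakaryocyte genes, 3 were called in all 6 (Pf4, Itga2b and Gp9). The part of other cells in the member regions was not tested.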

How the data were processed

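Per the submitters' processing notes, the build was mm10 and the tools were Bowtie2, SAMtools, Picard and MACS2, and each deposited list has the MACS2 layout. Versions, settings, read depth and any shift of reads for the transposase are not given in the sources used here. The deposited score is the -log10 p times 10, with a cap of 1000, within 1 unit in every row. The deposited fold enrichment is a ratio over the background of a peak's own sample. The deposited -log10 p and -log10 q depend on depth and served here for ranks and limits inside a list. All deposited p-values were 0.01 or lower, so weak peaks are included. Boundaries differ between lists, so peaks were called per sample.

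Rows with 1 interval were taken as 1 peak, chromosomes 1 to 19 and X were kept, and percentiles average ties. RefSeq tables on GRCm38.p6 matched all 10 members by symbol and gave a start for 9. Each value per list was tested by exact 2-sided permutation in Python 3.11.15 (numpy 2.4.6, pandas 2.3.3, scipy 1.17.1), and counts of calls were set beside the same counts over all regions or genes. Merging and calling were tested on simulated lists. Members, gene lists and tests were chosen with earlier results of these data known. Regions were named if they were promoters of members, called in all 6 lists or at one age alone, or among the 3 others per gene with the highest mean percentile, and the weakest of these are covered by counts. Other Polycomb genes were named if among the 4 highest, in at most 2 lists, or with 2 or more lists between the ages. Alternatives were q 0.05, equal list lengths, 50% overlap, a 10 kb flank, promoter windows of 500 bp and 2 kb, each list left out, and replicate pairing.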

Additional observations from a re-analysis of the deposited data

How the results depend on the processing

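The number of member promoters called in all 6 lists stayed at 6 at q 0.05, in lists cut to equal length and with a window of 500 bp, and was 7 with 2 kb. Leaving out single lists gave 6 to 9. At q 0.05 the promoter of Ring1 was called in 3 lists and that of Cbx7 in 4. That of Bmi1 was still called in aged replicate 3, at a percentile of 4.62. Shares over all genes are not given for these settings. The other Polycomb genes called in all lists were 27, with 19 at q 0.05, 20 in lists of equal length, 24 with a window of 500 bp, 31 with 2 kb and 27 to 32 without single lists. These counts, too, stand without shares over all genes at the changed settings. Regions called in all lists were 15, between 12 and 16 under the other settings and 15 to 25 without single lists. The aged-only count of 1 became 0 at q 0.05 and 0 in lists of equal length. Without single lists, where fewer calls are asked for, it ran from 1 to 4 and the young-only count from 0 to 5. The difference in regions called per list, aged minus young, of -6.33 turned to 3.67 at q 0.05 and 8.67 in lists of equal length, with -21.3 to 2.17 without single lists. The cause was not tested. The difference in share stayed positive under every setting run, at 0.00244 to 0.0146 percentage points. As a replicate block, the replicate numbers gave exact p-values of 0.5 for the share and 1 for the number of regions, where 0.25 is the smallest possible. Deviations of same-numbered lists from their group means correlated at 0.0232, -0.237 and -0.265 over 130763 regions, none above 0.1. Among differently numbered lists, aged replicate 2 correlated with young replicate 3 at 0.259 and aged replicate 3 with young replicate 2 at 0.257. The remaining pairs lay between -0.0538 and 0.0386. Deviations from a group mean cancel out within each age, so these correlations constrain each other. They cannot decide whether same-numbered lists belong together. The numbers that the titles share between the ages are unexplained, so whether same-numbered samples share an experiment is unknown. Depth is unknown, so a missing call is not evidence of closed chromatin.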

Other observations

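The windows of the members also hold starts of other genes, and 7 of the 29 regions at such starts were called in all 6 lists, against 15.4% of all promoter regions in the genome. Next to Eed, the region at the start of Hikeshi, a carrier of heat-shock proteins into the nucleus (chr7:89940759-89941426), had a mean percentile of 99.2, above the 97.7 of Eed itself. Next to Ring1, which lies in the major histocompatibility complex, the region at the start of the class I gene H2-K1 (chr17:33999879-34000740) had a mean of 98.5, that shared by Rxrb, a nuclear receptor, and Slc39a7, a zinc transporter, one of 91.7, and that of H2-Ke6 one of 85.8. All 3 are among the 7 called in all 6 lists, which include the 2 that lacked the Ring1 promoter. The strongest region at the start of Col11a2 (chr17:34038895-34039519) had a mean of 29.8. It was called in 2 lists of each age, with no call in aged replicate 1 or young replicate 2.

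The region at the start of Cbx8 (chr11:119040590-119041508) lay 18 kb from the start end of Cbx2 and had a mean of 99, against 92.7 for Cbx2. The region at the start of Commd3, upstream of Bmi1 and shared with Gm33355 (chr2:18671907-18672764), was called in all 6 lists at 93.3, 93.6 and 97.4 in the aged samples and at 92.9, 22.3 and 93.2 in the young ones. Next to Cbx7, the region at the start of Apobec3, an antiviral deaminase (chr15:79892148-79892574), lacked a call in young replicate 2 alone.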
